A study of Mus musculus with 2 samples.

Results

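Mir103-1, Mir103-2 and Mir107 are 3 of the 1973 miRNA genes counted in these libraries. They were taken by their symbols in GENCODE M21, as the miRNA genes that lie inside Pank3, Pank2 and Pank1. MicroRNA sequencing was done on neural tube, the embryonic precursor of brain and spinal cord, from healthy mouse embryos of strain B6NCrl at 12.5 days. The series holds 1 group of 2 biological replicates, each a pool of male and female embryos, with 120 embryos in replicate 1 and 88 in replicate 2. No other tissue, age, genotype or treatment is among the samples, so levels are described within the tissue and compared between the replicate libraries only.

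MiR-103 and miR-107 form one vertebrate miRNA family, each made from an intron of a pantothenate kinase gene. Pantothenate kinases catalyse the first committed step of coenzyme A synthesis, and a miRNA in an intron is usually transcribed together with its host before the microprocessor cuts the hairpin out. In mice miR-103 and miR-107 are known for lowering insulin sensitivity through Cav1, which encodes caveolin-1, and in human cells for repressing DICER1, which encodes the nuclease that makes mature miRNAs. A miRNA finds its targets mainly through its seed, bases 2 to 8 from the 5′ end.

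The mature sequences are shown because they decide which gene a read can be assigned to. They are RefSeq's, on GRCm38.p6, written 5′ to 3′ with the seed in capitals.
mmu-miR-103-3p, from both Mir103-1 and Mir103-2: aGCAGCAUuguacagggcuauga
mmu-miR-107-3p: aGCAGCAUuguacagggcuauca
mmu-miR-103-1-5p: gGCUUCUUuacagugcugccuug
mmu-miR-103-2-5p: aGCUUCUUuacagugcugccuug
mmu-miR-107-5p: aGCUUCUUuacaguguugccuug
Among 1738 RefSeq mature entries, the 3p seed occurs in the products of 3 genes and the 5p seed likewise, and in both cases these are Mir103-1, Mir103-2 and Mir107. The 3p arm of miR-107 differs from that of miR-103 by 1 of 23 bases, G22C, counted from 1 at the 5′ end with the miR-103 base first. The 5p arms of Mir103-1 and Mir103-2 differ by G1A alone. The 5p arm of Mir103-2 differs from that of Mir107 by C16U, and the 5p arm of Mir103-1 differs from that of Mir107 by G1A and C16U. Only the 3p arms of Mir103-1 and Mir103-2 are identical over their whole length.

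The hairpins carry the arms at the same places, bases 15 to 37 and 52 to 74, shown here in capitals.
Mir103-1 hairpin: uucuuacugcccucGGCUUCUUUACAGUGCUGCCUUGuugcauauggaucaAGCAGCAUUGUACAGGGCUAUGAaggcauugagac
Mir103-2 hairpin: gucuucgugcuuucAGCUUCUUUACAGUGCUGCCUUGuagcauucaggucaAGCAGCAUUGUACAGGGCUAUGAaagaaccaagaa
Mir107 hairpin: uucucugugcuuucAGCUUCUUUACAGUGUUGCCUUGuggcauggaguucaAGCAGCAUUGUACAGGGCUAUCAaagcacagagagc
Mir103-1 and Mir103-2 share an unbroken run of 27 bases, from base 49 to base 75 of each hairpin. Mir107 shares a run of 24 bases, from 49 to 72, with each of them. A read that starts at the first base of the 3p arm holds a difference between Mir103-1 and Mir103-2 only from a length of 25 bases, beyond the annotated end of the arm. The same read holds a difference between Mir107 and either Mir103 gene from a length of 22 bases.

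Every window of 20 bases along each hairpin was looked up, by exact match, in all GENCODE M21 transcripts on both strands. Of the 67 windows of Mir103-1, 55 occurred in no other gene, against 51 of 67 for Mir103-2 and 59 of 68 for Mir107. The other windows occurred in another of the 3 genes, and 0 windows occurred in any further gene. Inside the 3p arm, 0 of 4 windows of Mir103-1 and 0 of 4 of Mir103-2 were unique, and 2 of 4 were unique in Mir107. Inside the 5p arm, 1 of 4 windows was unique in Mir103-1 and 1 of 4 in Mir103-2, and all 4 were unique in Mir107. Introns and intergenic sequence were not searched here. A window that differs from another gene by 1 base counts as unique, and the mismatches that the authors' alignment allowed are not known.

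**Figure D1:**
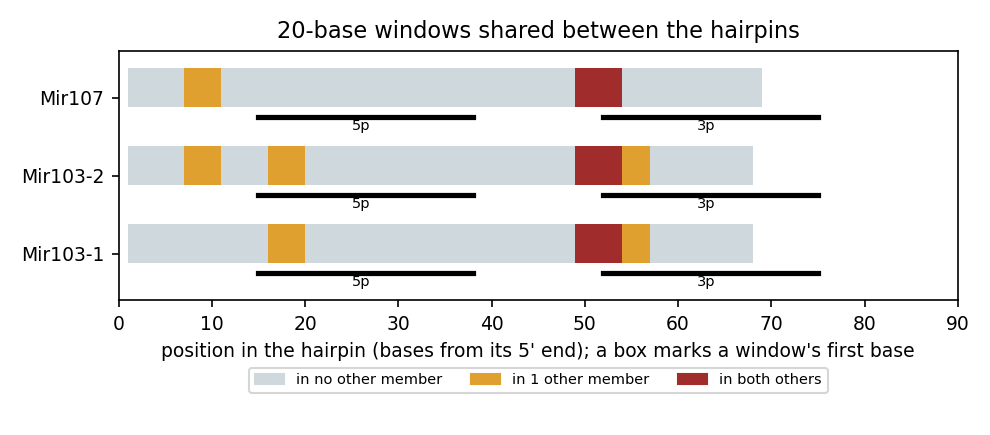
Windows of 20 bases along the hairpins of Mir107, Mir103-2 and Mir103-1, each box placed at the first base of a window (horizontal axis, bases from the 5′ end of the hairpin) and coloured by the number of other members that hold the same window, with black bars for the mature arms. The windows shared by all 3 start from the place where the 27-base and 24-base runs begin, and Mir107 has no shared window that starts inside its 5p arm.

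All 3 genes lie on the strand of their host and in an intron, by GENCODE M21 on mm10. Mir103-1 (ENSMUSG00000065553.1) is on chromosome 11 at 35782396 to 35782481, plus strand, in intron 5 of Pank3. Mir103-2 (ENSMUSG00000065563.1) is on chromosome 2 at 131288052 to 131288137, plus strand, in intron 5 of Pank2. Mir107 (ENSMUSG00000065594.1) is on chromosome 19 at 34820687 to 34820773, minus strand, in intron 5 of Pank1. The intron number is that of the longest host transcript that spans the hairpin, and each of these transcripts has 7 exons. The 3 introns measure 1740 bases in Pank3, 5801 in Pank2 and 7282 in Pank1. The hairpins begin 688, 454 and 326 bases after the upstream exon in Pank3, Pank2 and Pank1. None overlaps an exon in any spanning transcript of its host, of which Pank3 has 1, Pank2 has 7 and Pank1 has 3. Host messenger RNA was not measured by this assay.

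Mir107 held nearly all reads that could be assigned to the 3 genes, Mir103-2 few and Mir103-1 almost none. Values are whole-number read counts on the gene's own strand, and reads per 1000000 gene reads of the library (CPM). Mir107 had 4482 reads in replicate 1 and 4628 in replicate 2, or 933.3 and 1046 CPM. Mir103-2 had 147 reads in replicate 1 and 193 in replicate 2, or 30.6 and 43.6 CPM. Mir103-1 had 6 reads in each library, or 1.25 and 1.36 CPM. The order of the genes was the same in both libraries and their ranges did not overlap.

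The means were 989.8 ± 80.0 CPM for Mir107, 37.1 ± 9.21 CPM for Mir103-2 and 1.30 ± 0.0758 CPM for Mir103-1 (SD, n = 2 each). Neighbours in this order differed by far more than their spread. With 2 libraries, no two-sided exact permutation test of a ratio between 2 genes, swapped within each library, can go below p = 0.5. In whole tissue, fewer cells with a miRNA and less of it in each cell cannot be told apart.

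By exact binomial (Clopper-Pearson, 95%) intervals, Mir107 lay between 906.2 and 961.0 CPM in replicate 1 and between 1016 and 1077 CPM in replicate 2. The interval of Mir103-2 was 25.9 to 36.0 CPM in replicate 1 and 37.7 to 50.2 CPM in replicate 2. For Mir103-1 it was 0.458 to 2.72 CPM in replicate 1 and 0.498 to 2.95 CPM in replicate 2, a wide range set by the 6 reads. These intervals cover counting error only and leave out variation between the pools. Reads copied by PCR and not tagged per molecule may also repeat 1 molecule, which the intervals do not cover. The intervals of Mir107 and of Mir103-2 did not overlap between the libraries, and those of Mir103-1 did.

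**Figure D2:**
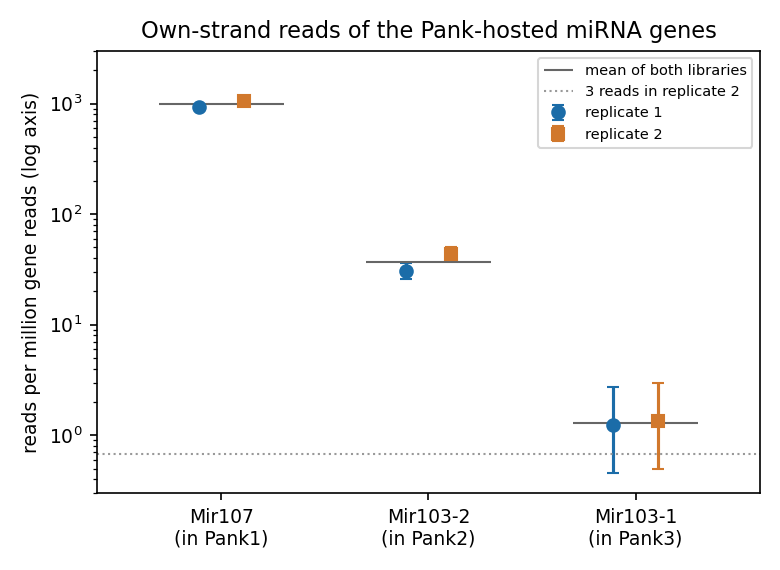
Reads per 1000000 gene reads (log axis) of Mir107, Mir103-2 and Mir103-1 in replicate 1 (circles) and replicate 2 (squares), with 95% exact binomial intervals, the mean of both libraries as a grey bar and the level of 3 reads in replicate 2, 0.678 CPM, as a dotted line. Mir107 sits at 933.3 and 1046 CPM, Mir103-2 at 30.6 and 43.6 CPM, and Mir103-1 close to the dotted line.

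By mean CPM Mir107 ranked 90 of the 1973 counted genes, Mir103-2 ranked 253 and Mir103-1 ranked 431. Genes with 10 or more reads in each library, 371 in number, were called detected, and Mir107 and Mir103-2 were among them. Mir103-1 was not. Of the detected genes 76.0% had a mean at or below that of Mir107 and 32.1% at or below that of Mir103-2. The median detected gene had 114.7 CPM, so Mir107 lay above it and Mir103-2 below.

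Reads on the strand opposite to the genes numbered 0 for each of the 3 genes in each library. At 3 counts, such a 0 still leaves room for 0.625 CPM in replicate 1 and 0.678 CPM in replicate 2. The counted reads of these loci were thus on the host's strand.

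Within the family, Mir107 held 96.7% of the 4635 reads in replicate 1 (interval 96.1 to 97.2) and 95.9% of the 4827 reads in replicate 2 (95.3 to 96.4). Mir103-2 held 3.17% in replicate 1 and 4.0% in replicate 2, and Mir103-1 held 0.129% and 0.124%. By Fisher's exact test of each gene against the other 2 members, two-sided and adjusted over 3 tests, the shares of Mir107 and Mir103-2 did not differ between the libraries past 0.05 (adjusted p = 0.0582 for both, unadjusted 0.0388 for Mir107 and 0.0313 for Mir103-2). The share of Mir103-1 gave an adjusted p of 1 in the same Fisher's exact test. With only 6 reads of Mir103-1 in each library, the tests of Mir107 and Mir103-2 are nearly the same comparison and not 2 separate results. All 3 tests compare the 2 libraries and not conditions.

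Mir107 outnumbered Mir103-1 and Mir103-2 together by 29.3 times in replicate 1 and 23.3 times in replicate 2, a mean of 26.3 ± 4.27 (SD, n = 2). Mir103-2 outnumbered Mir103-1 by 24.5 times in replicate 1 and 32.2 times in replicate 2. All of these ratios were above 1 by more than their spread.

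These ratios are of reads that the authors' counting gave to 1 gene. Reads with more than 1 mapping place are given apart, 3448592 in replicate 1 and 2698981 in replicate 2, and belong to no gene's count. A read within the annotated 3p arm of miR-103 ends before the first base that separates its 2 genes, as the sequences above show. How many of the reads with several places come from this arm was not measured. The whole count of Mir107 equals 0.130% of those reads in replicate 1 and 0.171% in replicate 2. The counts of Mir103-1 and Mir103-2 are therefore no measure of mature miR-103, and the ratio of Mir107 to them is no ratio of mature miR-107 to miR-103. A read of the 3p arm of miR-107 that ends before base 22 of the arm also matches the Mir103 genes. The count of Mir107 may therefore fall short as well, by an amount that was not measured. The counts hold both arms of a hairpin. By exact match, a read within the annotated 3p arm fits both Mir103 genes, while a read that runs past it may fit only 1. How many of the 6 or the 147 and 193 reads came from each arm cannot be told.

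Both members that reached the minimum of 10 reads had a lower CPM in replicate 1 than in replicate 2. The libraries were compared with a two-sided exact binomial test on TMM-scaled totals, adjusted by Benjamini-Hochberg over the 371 detected genes. Mir107 had a log2 ratio of replicate 1 over replicate 2 of -0.20 (adjusted p = 6.57e-11), and Mir103-2 one of -0.55 (adjusted p = 0.00123) in this exact test. Of all tested genes 53.1% passed the test, and 27.0% passed it with the lower value in replicate 1. That share depends on the minimum, with 186 of 736 genes passing at 1 or more reads in either library and 182 of 269 at 100 or more in both. Mir107 and Mir103-2 passed under each of these minimums.

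The test covers counting error alone. The common coefficient of variation of these libraries, by edgeR, was 16.3%. Expressed as the SD of a log2 ratio, this is 0.33, with counting error left out. The ratio of Mir107 was 0.617 of that SD and the ratio of Mir103-2 was 1.66 of it. Of the 371 genes, 211 had a larger absolute log2 ratio than Mir107 and 48 a larger one than Mir103-2. Neither member was among the 2.70% of genes that passed the test and lay at least 2-fold apart. Mir103-1 had a log2 ratio of -0.16 on 6 and 6 reads, under the minimum. With genes of at least 1 read in either library included, its adjusted p by the exact binomial test was 1, among 736 genes.

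**Figure D3:**
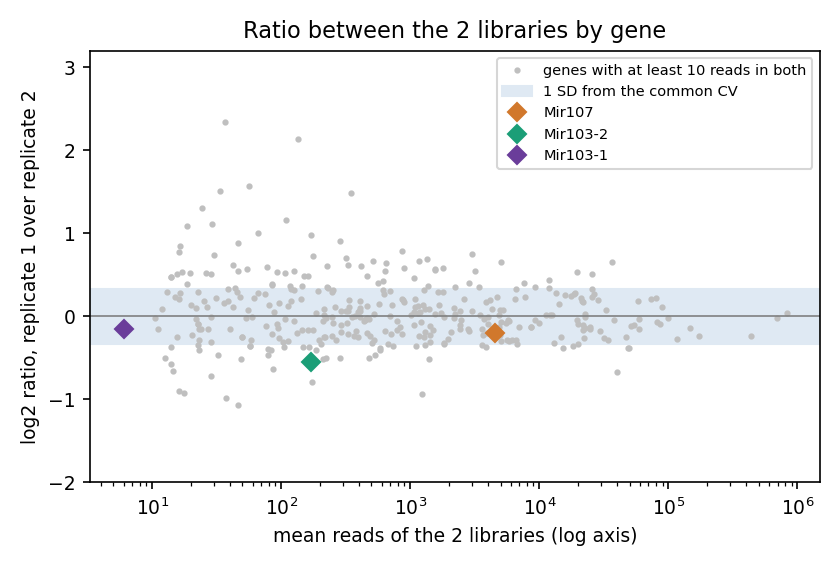
Log2 ratio of replicate 1 over replicate 2 against the mean reads of both libraries (log axis) for 371 detected genes (grey) and for Mir107, Mir103-2 and Mir103-1 (diamonds), with a band of 1 SD, 0.33, from the common coefficient of variation. Mir107 and Mir103-1 lie inside the band and Mir103-2 lies below it at -0.55. The band leaves out counting error, which is large at the 6 reads of Mir103-1 in each library.

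The seed of the family is a shifted form of that of miR-15 and miR-16, a family known for holding back the cell cycle. The mature sequences are shown with the 6 bases they share in capitals, which start at base 1 in miR-103 and at base 2 in the others.
mmu-miR-103-3p: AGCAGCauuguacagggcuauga
mmu-miR-15a-5p: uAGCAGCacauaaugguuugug
mmu-miR-15b-5p: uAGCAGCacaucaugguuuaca
mmu-miR-16-5p: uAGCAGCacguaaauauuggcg
mmu-miR-195a-5p: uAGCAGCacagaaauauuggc
mmu-miR-322-5p: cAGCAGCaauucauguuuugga
mmu-miR-503-5p: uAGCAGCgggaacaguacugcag
The 10 symbols listed for these relatives include alternative names of a gene, as with Mir195 and Mir195a, and so stand for fewer genes. Of them 7 were counted, and all 7 were detected. Their median was 1070 CPM, and that of all detected genes was 114.7 CPM. The median of the 3 Pank-hosted genes, with the undetected Mir103-1 included, was the 37.1 CPM of Mir103-2. None of these levels holds reads with several mapping places.

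The 3 Pank-hosted genes together had 965.1 CPM in replicate 1 and 1091 CPM in replicate 2, and the 7 relatives 17917 and 18400 CPM. Mir322, in a cluster on the X chromosome, held most of the relatives' reads with 11750 ± 388.9 CPM (SD, n = 2). Mir15a had 3056 ± 277.7 CPM and Mir16-1 1462 ± 208.3 CPM, above Mir107 by more than the spread. Mir107 and Mir15b could not be ordered: Mir107 had 933.3 CPM in replicate 1 and 1046 CPM in replicate 2, and Mir15b 1112 and 1028 CPM, so Mir107 was the lower of them in replicate 1 and the higher in replicate 2. Mir503 followed with 395.4 ± 55.7 CPM, Mir16-2 with 275.2 ± 28.4 and Mir195a with 150.8 ± 3.18. Mir103-2 and Mir103-1 lay below all 7 in both libraries. Between the libraries 2 of the 7 were higher in replicate 1 past the exact binomial test and 4 lower, against 0 and 2 of the 2 tested Pank-hosted genes and the 53.1% of all genes.

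**Figure D4:**
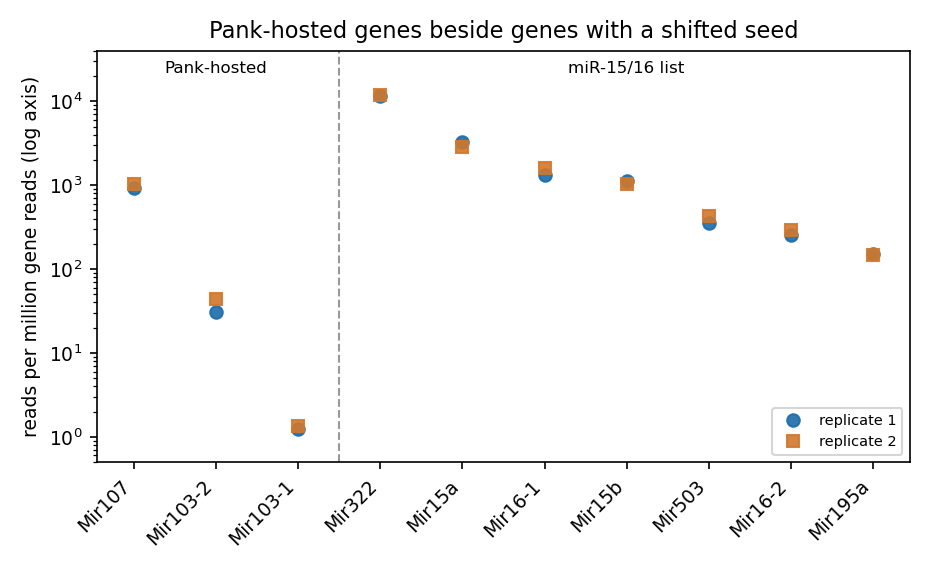
Reads per 1000000 gene reads (log axis) in replicate 1 (circles) and replicate 2 (squares) for the 3 Pank-hosted genes, left of the dashed line, and 7 counted genes of the miR-15/16 list in order of their mean. Mir107 lies at the level of Mir15b, and Mir103-2 and Mir103-1 lie below every relative shown.

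The arrangement of Mir103-1, Mir103-2 and Mir107, with 1 mature sequence at 2 loci and a relative with its own sequence, recurs in other families. Mir107 over its pair, at 29.3 in replicate 1 and 23.3 in replicate 2, lay within the range of the 7 other ratios listed. Mir26b over Mir26a-1 and Mir26a-2 was the highest, with 529.8 and 488.6. Mir29c over Mir29b-1 and Mir29b-2 gave 71.2 and 75.4, and Mir29a over the same pair 27.4 and 42.4. These ratios rest on only 5 summed reads of the Mir29b pair in each library. The ratio of Mir196b to its pair was 5.68 and 8.10, that of Mir19a 3.93 and 4.13, and that of Mir92b 1.98 and 1.54. Mir30b and its pair were close to equal, at 0.799 and 1.01. Mir107 was thus neither the highest nor the lowest, and its ratio overlapped that of Mir29a.

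Mir107, Mir196b and Mir19a each differ from the arm of their pair by 1 base, and their mean ratios were 26.3, 6.89 and 4.03. Mir26b and Mir92b each differ by 2 bases, with mean ratios of 509.2 and 1.76. Mir29c differs by 3 bases and Mir29a by 4, with mean ratios of 73.3 and 34.9. Relatives with the same number of differing bases had unlike ratios. By mean ratio the 3 with 1 difference lay below Mir26b, Mir29c and Mir29a and above Mir92b. For Mir30b, with a mean ratio of 0.905, no number of differing bases was obtained. Whether the ratios depend on the number of differing bases was not tested.

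**Figure D5:**
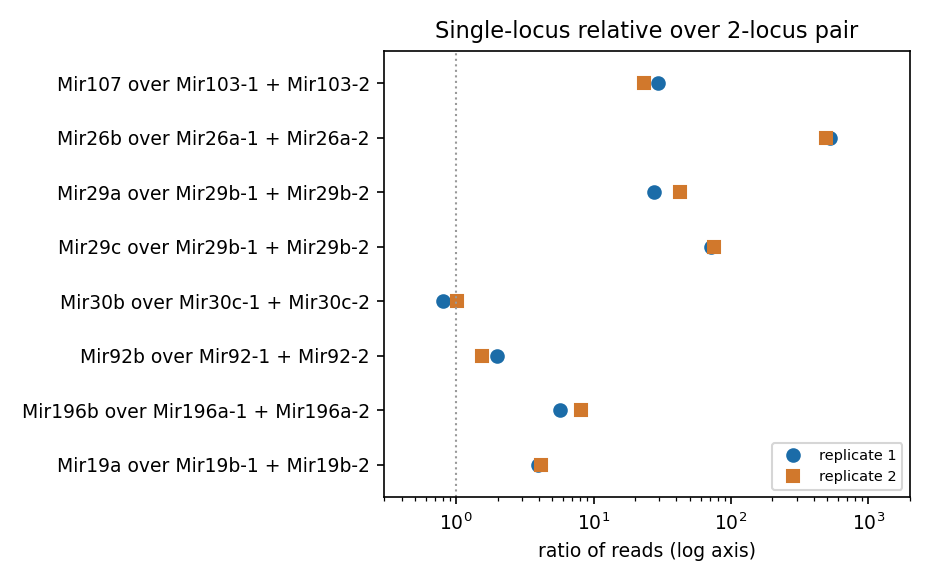
Ratio of reads (log axis) of a miRNA gene with its own mature sequence over the summed reads of 2 genes that share 1 mature sequence, in replicate 1 (circles) and replicate 2 (squares), with a dotted line at a ratio of 1. Mir107 over Mir103-1 and Mir103-2 stands at 29.3 and 23.3, below Mir26b and Mir29c and above Mir196b, Mir19a, Mir92b and Mir30b.

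Of the 1973 counted genes 916 matched a RefSeq mature entry by symbol, and 87 of these have an arm that is identical at another locus, as Mir103-1 and Mir103-2 do. Of the 87 genes, 54.0% were detected, against 34.9% of the 829 genes with no such arm, the class of Mir107. The median of the 87 was 4.90 CPM, with Mir103-2 above it and Mir103-1 below, and that of the 829 was 0.53 CPM. Among detected genes the medians were 139.8 CPM in the class with an identical arm and 127.3 CPM in the class without. The difference between the classes was not tested. Mir103-2 was reached or passed by 35 of the 87, counting itself, and Mir103-1 by 49. Mir107 was reached or passed by 76 of the 829.

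By position, 854 counted genes lie inside a protein-coding gene on its strand, and 20.3% of them were detected. Mir107 was reached or passed by 44 of these, Mir103-2 by 106 and Mir103-1 by 222, each counting itself. Of the 1040 counted genes not inside one, 19.0% were detected, and 46 reached or passed Mir107, 147 Mir103-2 and 211 Mir103-1. The difference between these classes was not tested.

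The genes nearest to each member were taken by the distance of log2(CPM + 1) over the 2 libraries. Mir107 was nearest to Mir467e (1028 and 1093 CPM in replicates 1 and 2, distance 0.15) and to Mir101b (1016 and 1155 CPM, distance 0.19). Mir103-2 was nearest to Mir758, with 146 and 194 reads against its own 147 and 193 (distance 0.012), and then to Mir190a (152 and 176 reads). Mir103-1 shared its 6 and 6 reads with Gm22925 and Mir5623. Over 2 libraries of 1 group such nearness is a likeness of level only.

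Other miRNA genes linked to metabolism served as a further list, of which 6 were counted and 5 detected, with a median of 60.6 CPM. Mir33, which lies in the sterol regulator gene Srebf2 and acts on cholesterol export, had 82.9 ± 5.59 CPM, below Mir107 and above Mir103-2. Mir143, known from smooth muscle and from insulin signalling in liver, had 5340 ± 232.8 CPM, above all 3 members. Mir29a (38.2 ± 13.7 CPM) and Mir103-2 (37.1 ± 9.21 CPM) differed by less than their spread. Mir375, a regulator of pancreatic beta cells, had 290.3 ± 101.6 CPM and the liver gene Mir122 had 23.1 ± 12.9 CPM. Mir802 had 1 and 8 reads. Between the libraries 2 of the 5 were higher and 2 lower in replicate 1 past the exact binomial test, beside the 53.1% of all genes, while Mir103-2 and Mir107 were both lower.

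The libraries held 4802411 and 4422853 own-strand gene reads in replicates 1 and 2. Of 10 counted neural markers, 8 were detected, with summed levels of 10633 and 8954 CPM, led by Mir219a-2 and by Mir137, a regulator of neuronal differentiation, with 2809 ± 379.0 CPM. The genes of the neuronal Mir124a, which share their mature sequence as the Mir103 genes do, had at most 52 reads. Of 13 counted markers of other cell types 11 were detected, with summed levels of 32973 and 29451 CPM, most of it from the endothelial Mir126a. Of 4 muscle markers 2 were detected, Mir206 with 3895 reads in replicate 1 and 2078 in replicate 2 and Mir208b with 229 and 124. Mir1a-1 had 1 and 0 reads and Mir133a-1 had 0 in both libraries. Reads with more than 1 mapping place are in none of these counts, so a count near 0 does not show that the mature miRNA was absent. Between the libraries 6 of the 11 detected markers of other cell types were higher in replicate 1 past the exact binomial test and 1 was lower, with both detected muscle markers and the liver gene Mir122 among the higher ones. Of the 8 detected neural markers 3 were higher and 2 lower. Among all 371 tested genes 97 were higher in replicate 1 and 100 lower past the same test. The part of other cell types in the reads of Mir103-1, Mir103-2 and Mir107, and in their lower values in replicate 1, was not tested.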

How the data were processed

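The authors deposited raw counts per miRNA gene for each library, in 3 columns, the sum over strands and the 2 strands singly. Per the description deposited with the files, the counts rest on mm10 and annotation M4, and no aligner, counter or trimming step is given in the sources used here. The gene's own strand was taken to be the one with more gene reads. The 4 rows that name no gene were left out of totals: of all reads in replicate 1, 27.3% were unmapped, 27.0% mapped to several places and 8.04% lay on no feature, and in replicate 2 20.0%, 28.6% and 4.45%. Depth was 4802411 and 4422853 own-strand gene reads.

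Symbols and positions came from GENCODE M21 on the same assembly, matching 1894 of 1973 identifiers, and sequences from RefSeq (GRCm38.p6). The 3 members, the lists and the tests were chosen with earlier results of these data known. Genes named are the members, the counted genes of the lists and, for each member, the 2 nearest genes; those named as markers come from the marker lists.

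With 1 group there is no contrast for edgeR's quasi-likelihood test. The libraries were compared over all genes with at least 10 reads in both by an exact binomial test on TMM-scaled totals (edgeR 4.0.16, R 4.3.3), with Benjamini-Hochberg adjustment and a threshold of 0.05. It was tested on simulated counts with counting error alone, which lack the further variation between these replicate libraries. Alternatives were library totals, DESeq2 1.42.0 size factors, other minimums (1 and 100 reads), the both-strand column and other denominators. Python 3.11.15, numpy 2.4.6, pandas 2.3.3, scipy 1.17.1 and matplotlib 3.10.9 were used.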

Additional observations from a re-analysis of the deposited data

How the results depend on the processing

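Of 54 alternative values 47 kept their direction and their side of the threshold or moved by less than 1 SD, 7 moved and 0 reversed. Part of the 47 was fixed in advance. The both-strand column leaves the shares and ratio of the members unchanged by construction, since their opposite-strand reads numbered 0. With reads mapping to several places added to the denominator, the mean levels were 596.5 CPM for Mir107, 22.5 for Mir103-2 and 0.785 for Mir103-1. With all reads of the file in the denominator they were 421.3, 16.01 and 0.554 CPM. Both divide every gene of a library by the same number, so the order and the ratios of the members are the same by construction. With at least 100 reads in both libraries, 2 genes in place of 10 passed the test and lay at least 2-fold apart, of fewer genes tested (269 in place of 371). Leaving out a library gives the value of the other, with no test. With 2 libraries that value always lies within 1 SD of the mean, so it could not count as moved. No paired analysis was possible because there is only 1 group. At 6 reads, a difference of Mir103-1 between the libraries was not detectable unless large.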
